A study of Homo sapiens with 6 samples.

Results

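Oxidative phosphorylation subunits encoded in the nucleus were examined in LS174T cells, a line from a human colorectal adenocarcinoma whose labels call it goblet-like, after the mucus-making cells of the intestine. The genes were chosen by name alone, as protein-coding genes of the NDUFA, NDUFB, NDUFC, NDUFS, NDUFV, SDH, UQCR, COX4 to COX8 and ATP5 series together with CYC1. The rule gave 87 genes of the 58735 named genes counted. Poly(A) RNA was sequenced from 3 libraries labelled with an FXYD3 knockout genotype and from 3 libraries of wild-type LS174T cells. FXYD3 is a small membrane protein that regulates the Na,K-ATPase. The labels name no treatment, give no detail of the edit or of clones, and leave unsaid whether libraries of the same genotype came from different cultures. The p-values therefore rest on a spread between libraries that may be technical alone.

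Named genes received 15417232, 19453217 and 16581832 counts in the knockout-labelled libraries and 17585885, 17596549 and 16507805 in the wild-type ones. FXYD3 itself had 79, 131 and 85 counts in the knockout-labelled libraries and 54, 91 and 55 in the wild-type ones, with a log2 fold change of 0.54 (SE 0.20, adjusted p = 0.0522 by edgeR's quasi-likelihood test with Benjamini-Hochberg adjustment) that passed the threshold in 7 of 18 alternative settings. Its transcript was thus no lower under the knockout label, and the groups are named here by label only. EPCAM, KRT8, KRT18, VIL1, CDH17 and CDX2, markers of intestinal epithelium, were expressed in both groups without passing the threshold. Of the 17 goblet and colon markers looked at, 9 were lower in the knockout-labelled libraries (52.9%) and 0 higher. Among all genes tested 12.4% were lower. The 9 were MUC2, MUC5AC, MUC5B, TFF3, SPDEF, FCGBP, AGR2, CDX1 and CDH1. Their log2 fold changes ran from -3.30 (MUC5AC) to -0.36 (CDH1), with MUC2 at -0.99 and CDX1 at -0.67. The calls of SPDEF and TFF3 were lost without knockout-labelled library 2 or 3 or wild-type library 3. SPDEF also lost its call without wild-type library 2, and TFF3 without wild-type library 1. ATOH1 (log2 fold change -0.20) and KRT20 (-0.19), also among the 17, were not called. Of 14 markers of other cell types looked at, 2 had enough reads to be tested, with log2 fold changes of 4.14 and 0.43. Of these 2, 1 was called higher (50%), where 12.0% of all genes tested were. The 2 summed to 6.20 to 7.27 CPM (read counts scaled to a common library total) in the knockout-labelled libraries. In the wild-type ones they summed to 0.926 to 1.55. PTPRC, CD3E, PECAM1 and GFAP were at 0.

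Oxidative phosphorylation is the last stage of respiration in the mitochondrial inner membrane. Complexes I and II take electrons from NADH and succinate, complex III passes them to cytochrome c, and complex IV, cytochrome c oxidase, gives them to oxygen; complexes I, III and IV pump protons, and complex V, the ATP synthase, makes ATP from the gradient. Most subunits are encoded in the nucleus and imported after translation in the cytosol, while a small core set is encoded by mitochondrial DNA, so that each complex except II needs products of both genomes. Epithelial cells of the colon are known for burning short-chain fatty acids such as butyrate through this pathway.

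Most subunit genes were not called, and their small differences leaned lower. Of the 87 genes, 80 had enough reads to be tested (at least about 10 counts in 3 libraries). COX6C, an accessory subunit of complex IV, was the 1 gene called higher in the knockout-labelled libraries, 1.25% of the tested subunits, where 12.0% of all 15351 genes tested were called higher. Lower were 10 subunit genes, 12.5% of those tested, where 12.4% of all genes were called lower. These were SDHA and SDHC of complex II, NDUFS5, NDUFB11 and NDUFA6 of complex I, UQCRH of complex III, and COX8A, COX5A, COX6A1 and COX7A2L of complex IV. A gene was called at an adjusted p below 0.05 in edgeR's quasi-likelihood test, with adjustment by Benjamini-Hochberg over all genes tested. In either direction 24.3% of all genes were called. The subunits' share of lower calls was thus close to that of all genes.

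The fold changes were small. The median log2 fold change of the 80 tested subunits was -0.10, against 0.00 over all genes tested, and the middle 50% of them lay between -0.18 and -0.03. Below 0 lay 62 of the 80 and above it 18. In 9 subunit genes the 3 knockout-labelled libraries all lay below the 3 wild-type ones and in 4 they all lay above, where 18.6% of all genes tested were apart in each direction. Summed over all subunits, expression was 10793 ± 433 CPM in the knockout-labelled libraries and 11204 ± 941 in the wild-type ones (SD, n = 3 each; library totals scaled by TMM), and the groups overlapped. Since a library pools many cells, a lower level in every cell and its loss in some of them cannot be told apart.

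**Figure D1:**
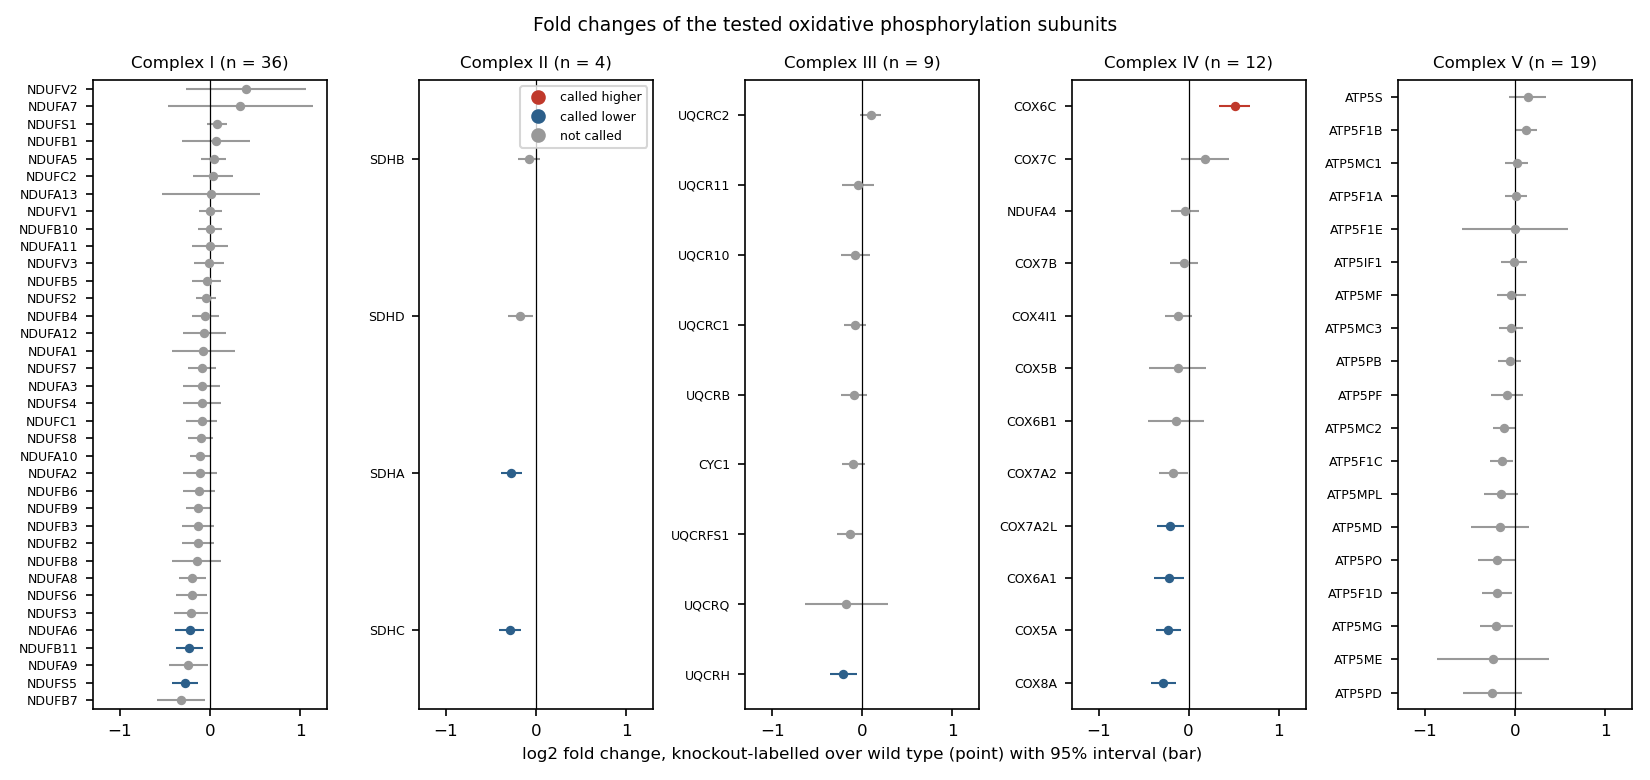
Log2 fold change, knockout-labelled over wild type, of each of the 80 tested subunit genes by complex, with its 95% interval as a bar. COX6C is the 1 gene called higher (red), 10 genes called lower are blue, and the 69 uncalled genes are grey and lie mostly just left of 0.

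Complex II, succinate dehydrogenase, had a lower summed level: its 4 genes summed to 591, 605 and 575 CPM in the knockout-labelled libraries, against 703, 669 and 708 in the wild-type ones. The groups did not overlap, with a log2 ratio of -0.23, and the sum was not tested. This is the complex that feeds electrons from the citric acid cycle directly into the chain, and all of its subunits are encoded in the nucleus. SDHA and SDHC fell, while SDHB and SDHD were not called. Thus 2 of 4 genes were called lower (50%) and 0 higher, where 12.4% of all genes tested were lower and 12.0% higher. SDHA alone held 50.8 ± 1.93% of the counts of the complex in the knockout-labelled libraries and 52.4 ± 0.561% in the wild-type ones. The sum thus rests largely on SDHA.

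SDHA, the flavoprotein that oxidises succinate (ENSG00000073578; GRCh38 chromosome 5, 218241 to 256700, plus strand), had 288, 316 and 297 CPM in the knockout-labelled libraries and 371, 353 and 366 CPM in the wild-type ones. Every knockout-labelled library lay below every wild-type one, with a log2 fold change of -0.28 (SE 0.06, 95% interval -0.39 to -0.16, adjusted p = 0.000512). SDHC, one of the membrane anchors that hold the heme and the ubiquinone site (ENSG00000143252; chromosome 1, 161314257 to 161375340, plus strand), had 98.9, 97.9 and 99.6 CPM in the knockout-labelled libraries and 124, 114 and 126 CPM in the wild-type ones. The knockout-labelled libraries were almost equal and all below the wild-type ones (log2 fold change -0.29, SE 0.06, 95% interval -0.42 to -0.17, adjusted p = 0.000517). SDHD, the other anchor, had 97.7, 91.5 and 81.8 CPM in the knockout-labelled libraries and 99.8, 99.1 and 107 CPM in the wild-type ones. These did not overlap either, but the gene missed the threshold (log2 fold change -0.17, SE 0.07, adjusted p = 0.0594) and was called in 3 of 18 other settings, among them without knockout-labelled library 1 or wild-type library 2. SDHB, the iron-sulfur subunit between SDHA and the anchors, had 107, 99.8 and 96.2 CPM in the knockout-labelled libraries against 108, 103 and 108 CPM in the wild-type ones, which overlapped (log2 fold change -0.08, 95% interval -0.20 to 0.05, adjusted p = 0.395). Whether SDHA and SDHC fell by more than SDHB and SDHD was not tested.

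The 250 bases before the RefSeq start of 3 of the 4 complex II genes, and of COX8A of complex IV, are shown because they carry, in different make-up, motifs on which promoters of respiratory genes are known to depend. They are RefSeq sequences on GRCh38.p14, written 5′ to 3′ on the strand of the gene. The gene starts of the deposited annotation lie further upstream, so that the last 79 bases shown for SDHA, 138 for SDHB, 100 for SDHD and 13 for COX8A fall inside the genes as deposited. Capitals mark matches to the motif of the factor NRF1, taken as GCGCA, any 1 base, and GCGC, and matches to CCGGAAG on either strand (CTTCCGG on the other), the motif of ETS factors such as GABP.
SDHA: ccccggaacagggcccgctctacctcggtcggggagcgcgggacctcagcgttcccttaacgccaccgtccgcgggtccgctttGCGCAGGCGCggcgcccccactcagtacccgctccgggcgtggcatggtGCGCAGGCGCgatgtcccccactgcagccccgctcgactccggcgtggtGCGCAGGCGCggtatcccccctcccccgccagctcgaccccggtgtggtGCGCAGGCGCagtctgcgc
SDHB: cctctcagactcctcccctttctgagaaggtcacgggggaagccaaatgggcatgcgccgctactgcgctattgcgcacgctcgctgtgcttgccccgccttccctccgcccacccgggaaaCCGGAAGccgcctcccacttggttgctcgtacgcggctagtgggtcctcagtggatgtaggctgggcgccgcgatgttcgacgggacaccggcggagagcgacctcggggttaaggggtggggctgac
SDHD: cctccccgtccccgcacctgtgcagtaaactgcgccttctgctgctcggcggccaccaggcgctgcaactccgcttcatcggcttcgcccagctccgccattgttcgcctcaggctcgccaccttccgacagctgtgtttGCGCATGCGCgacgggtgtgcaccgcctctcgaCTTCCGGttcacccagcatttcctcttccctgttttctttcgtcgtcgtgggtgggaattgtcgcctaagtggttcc
COX8A: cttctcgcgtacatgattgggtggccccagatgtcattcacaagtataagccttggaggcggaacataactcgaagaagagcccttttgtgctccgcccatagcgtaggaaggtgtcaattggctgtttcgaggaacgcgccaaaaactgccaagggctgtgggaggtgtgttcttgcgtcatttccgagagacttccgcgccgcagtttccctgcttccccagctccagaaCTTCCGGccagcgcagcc
The SDHA sequence is chr5:218070-218319 on the plus strand, that of SDHB chr1:17054033-17054282 on the minus strand, that of SDHD chr11:112086623-112086872 on the plus strand and that of COX8A chr11:63974370-63974619 on the plus strand. In SDHA the NRF1-type motif stands 4 times, with the same 10 letters each time, at 166, 117, 68 and 19 bases before the RefSeq start, so that each copy follows the last at 49 bases. Of 27305 promoters in the reference table, 14 held at least 4 such matches. SDHB had 1 ETS match and no NRF1 match in this window, SDHD had 1 of each, its NRF1 match being the palindrome with T as the free base, and COX8A had 1 ETS match close to the RefSeq start. These are letter matches and say nothing of binding in these cells.

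In the deposited annotation SDHA begins 26 bases from CCDC127, the next gene. CCDC127 had 20.3 CPM in the knockout-labelled libraries and 19.0 in the wild-type ones, and its difference was not called (log2 fold change 0.10, SE 0.10, adjusted p = 0.510). Among 14 tested genes within 500 kb of SDHA, a window chosen after the values were seen, 1 was called higher and 5 lower, with a median log2 fold change of 0.05, where 12.0% of all genes were called higher and 12.4% lower. The 3 nearest of those called lower were PDCD6 at 14.9 kb (log2 fold change -0.46, SE 0.06, adjusted p = 7.19e-07), PLEKHG4B at 28.3 kb (-4.04, SE 0.20, adjusted p = 1.02e-14; 0.773 CPM in the knockout-labelled and 13.1 in the wild-type libraries) and AHRR at 47.5 kb (-0.57, SE 0.10, adjusted p = 7.02e-05). Around SDHC 20 genes were tested in the same window, of which 0 were called higher and 4 lower. Around COX8A 29 were tested, of which 1 was called higher and 6 lower. Around NDUFS5 6 were tested, of which 0 were called higher and 0 lower. The part of these neighbourhoods in the fall of SDHA, SDHC, COX8A or NDUFS5 was not tested.

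Complex IV, cytochrome c oxidase, had calls in both directions: 1 of its 12 tested genes was higher (8.33%) and 4 were lower (33.3%). Over all genes tested, 12.0% were called higher and 12.4% lower. COX6C (ENSG00000164919; chromosome 8, 99873200 to 99894062, minus strand), an accessory subunit with a single membrane span, had 282, 274 and 252 CPM in the knockout-labelled libraries and 196, 160.3 and 210.2 CPM in the wild-type ones. All knockout-labelled libraries lay above all wild-type ones (log2 fold change 0.51, SE 0.08, 95% interval 0.34 to 0.69, adjusted p = 0.000165). As a share of all complex IV counts in this table, COX6C made up 14.0, 14.3 and 14.2% in the knockout-labelled libraries and 9.92, 9.45 and 9.81% in the wild-type ones. Within a group these shares varied less than the CPM did.

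The subunits of complex IV that fell did so by less than COX6C rose. COX8A, the ubiquitous form of subunit VIII (ENSG00000176340; chromosome 11, 63974607 to 63976543, plus strand), had 109, 122 and 103 CPM in the knockout-labelled libraries and 129, 129 and 148 CPM in the wild-type ones. The groups were apart, with a log2 fold change of -0.28 (SE 0.07, 95% interval -0.42 to -0.14, adjusted p = 0.00308). The bases before its RefSeq start are printed above with those of the complex II genes. COX5A, which sits on the matrix side of the enzyme, had 136, 148.53 and 122 CPM in the knockout-labelled libraries and 163, 148.46 and 164 CPM in the wild-type ones, so that the groups overlapped at library 2 of each (log2 fold change -0.23, SE 0.07, adjusted p = 0.0137). COX6A1, the ubiquitous form of subunit VIa, had 68.3, 70.9 and 57.7 CPM against 73.4, 71.8 and 84.7 CPM in wild type (log2 fold change -0.22, SE 0.08, adjusted p = 0.0459). COX7A2L, known for joining complexes III and IV into supercomplexes, had 81.1, 76.9 and 72.8 CPM against 91.8, 78.3 and 96.3 CPM in wild type (log2 fold change -0.21, SE 0.07, adjusted p = 0.0406), so that in both genes wild-type library 2 lay next to or among the knockout-labelled libraries. COX5A lost its call on leaving out knockout-labelled library 1 or 3 or wild-type library 1, and the calls of COX6A1 and COX7A2L held in 6 and 8 of the 18 other settings, lost for both without knockout-labelled library 1 or 3 or wild-type library 1 or 3, and for COX7A2L without knockout-labelled library 2 as well. Neither DESeq2 nor limma voom called COX6A1 or COX7A2L. The sum over complex IV was 1899.5 ± 119.8 CPM in the knockout-labelled libraries and 1937 ± 226 in the wild-type ones, with the rise of COX6C inside it.

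**Figure D2:**
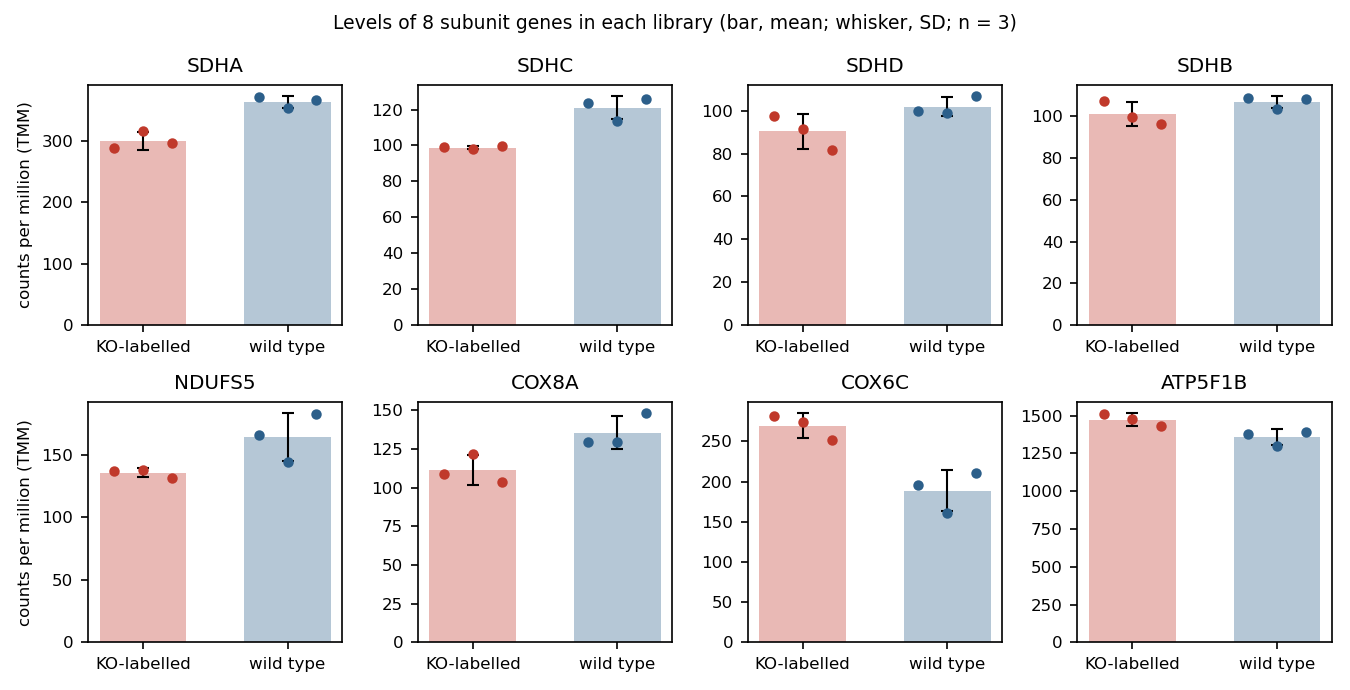
TMM-scaled CPM of 8 subunit genes, knockout-labelled libraries (red, left) and wild-type libraries (blue, right); points are libraries, bars means and whiskers SD (n = 3). SDHA, SDHC, NDUFS5 and COX8A lie lower in all 3 knockout-labelled libraries, COX6C lies higher, and SDHB overlaps.

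Genes near COX6C were looked at next, again in a window chosen after seeing the values. Of 5 tested genes within 500 kb, 3 were called higher, where 12.0% of all genes were: RGS22 (log2 fold change 2.07, 1.44 CPM in the knockout-labelled and 0.328 in the wild-type libraries, adjusted p = 0.00315), SPAG1 (0.37, adjusted p = 0.00686) and RNF19A (0.35, adjusted p = 0.00356). VPS13B, whose span overlaps COX6C without sharing exons, had a log2 fold change of 0.27 (adjusted p = 0.0866), and POLR2K, a subunit of RNA polymerases, one of -0.08 (adjusted p = 0.537). UQCRB, NDUFB9 and CYC1, also on chromosome 8, had log2 fold changes of -0.09, -0.13 and -0.10 and were not called. The part of the neighbourhood in the rise of COX6C was not tested.

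Complex I, the largest of the chain, had 36 tested genes, of which 0 were called higher and 3 lower (8.33%). Over all genes tested, 12.0% were called higher and 12.4% lower. In complex I 8 genes had an unadjusted p below 0.05. Its sum was 2373 ± 67.0 CPM in the knockout-labelled libraries and 2533 ± 224 in the wild-type ones. Of the 7 core subunits, which include those that carry the flavin, the iron-sulfur clusters or the quinone site, edgeR called 0. In edgeR 1 of the 7, NDUFS3, had an unadjusted p below 0.05. DESeq2 and limma voom also called 0 of these 7. The 3 genes called lower were accessory subunits.

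NDUFS5, an accessory subunit on the intermembrane side that is held by disulfide bonds (ENSG00000168653; chromosome 1, 39026318 to 39034636, plus strand), had 137, 138 and 132 CPM in the knockout-labelled libraries and 166, 145 and 182 CPM in the wild-type ones. The groups did not overlap (log2 fold change -0.28, SE 0.07, 95% interval -0.42 to -0.13, adjusted p = 0.00394). NDUFB11, in the membrane arm, had 86.6, 82.8 and 79.2 CPM in the knockout-labelled libraries and 96.8, 85.5 and 109 CPM in the wild-type ones, with wild-type library 2 inside the knockout-labelled range (log2 fold change -0.23, SE 0.07, adjusted p = 0.0258). NDUFA6, an accessory subunit of the LYR family that binds the acyl carrier protein NDUFAB1, had 58.7, 64.4 and 60.3 CPM in the knockout-labelled libraries against 78.3, 62.5 and 73.6 CPM in the wild-type ones (log2 fold change -0.22, SE 0.08, adjusted p = 0.0356). NDUFAB1, which the naming rule did not include, fell too, to 126 ± 12.1 CPM against 148 ± 17.2 CPM in wild type (log2 fold change -0.24, adjusted p = 0.0459). The calls of NDUFB11, NDUFA6 and NDUFAB1 were lost without wild-type library 1 or 3 or knockout-labelled library 3. They were also lost without knockout-labelled library 2 (NDUFB11, NDUFAB1) or 1 (NDUFA6). The call of NDUFA6 held in 8 of 18 other settings, and neither DESeq2 nor limma voom called it.

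The largest fold changes without a call were also in complex I. NDUFV2, a core iron-sulfur subunit, had a log2 fold change of 0.40 (SE 0.32, adjusted p = 0.405) and NDUFA7 one of 0.34 (SE 0.39, adjusted p = 0.584); both had very few reads, at 1.73 ± 0.364 and 1.07 ± 0.223 CPM in the knockout-labelled libraries and 1.31 ± 0.115 and 0.845 ± 0.210 CPM in the wild-type ones. NDUFB7, an accessory subunit of the intermembrane side, had 66.5 ± 1.57 CPM in the knockout-labelled libraries and 83.1 ± 16.1 CPM in the wild-type ones, a log2 fold change of -0.32 (SE 0.12, adjusted p = 0.0846) in which the wild-type spread was wide. NDUFB7 was called lower in 9 of 18 other settings. Whether accessory subunits moved more than core subunits was not tested; their median log2 fold changes were -0.09 over 29 accessory and -0.05 over 7 core genes.

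In complex III, which hands electrons from ubiquinol to cytochrome c, 1 of 9 tested genes was lower (11.1%) and 0 were higher. Over all genes tested, 12.4% were called lower and 12.0% higher. UQCRH, the acidic hinge protein beside cytochrome c1, had 174, 166.5 and 149 CPM in the knockout-labelled libraries and 197, 166.1 and 205 CPM in the wild-type ones. Wild-type library 2 lay inside the knockout-labelled range (log2 fold change -0.21, SE 0.07, adjusted p = 0.0404), and 7 of 18 other settings lost the call, among them those without knockout-labelled library 2 or 3 or wild-type library 1 or 3. The electron carriers themselves were not called: CYC1, cytochrome c1, had 178 ± 1.21 CPM in the knockout-labelled libraries and 191 ± 17.2 CPM in the wild-type ones, and UQCRFS1, the Rieske iron-sulfur protein, 177 ± 13.4 CPM against 195 ± 18.0 CPM in wild type (adjusted p = 0.252 and 0.143). UQCRC2, a core protein, was the 1 gene of the complex above 0, at a log2 fold change of 0.09 (adjusted p = 0.279).

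The ATP synthase had 19 tested genes, of which 0 were called by edgeR, DESeq2 and limma voom alike. In edgeR, which called 24.3% of all genes tested, 3 genes of the ATP synthase had an unadjusted p below 0.05. Its sum was 4258 ± 172 CPM in the knockout-labelled libraries and 4271 ± 310 CPM in the wild-type ones. Median log2 fold changes were 0.07 over the 2 genes of the F1 head and -0.15 over the 3 of the central stalk. They were -0.05 over the 3 of the c ring and -0.14 over the 4 of the peripheral stalk. The median over all 80 tested subunits was -0.10. ATP5F1B, the catalytic beta subunit, had 1512, 1480 and 1428 CPM in the knockout-labelled libraries and 1379, 1296 and 1393 CPM in the wild-type ones. Here the knockout-labelled libraries all lay above the wild-type ones, yet the difference missed the threshold (log2 fold change 0.12, 95% interval 0.00 to 0.24, adjusted p = 0.153). ATP5F1A, its partner in the head, had 881 ± 33.5 CPM against 872 ± 32.0 CPM in wild type. ATP5PD of the peripheral stalk (log2 fold change -0.25, SE 0.14, adjusted p = 0.268) and ATP5ME, a small membrane subunit (-0.24, SE 0.25, adjusted p = 0.565), had the largest changes in the complex, with wide errors. ATP5IF1, the inhibitor that blocks reverse action of the enzyme, was level at 125 ± 5.13 CPM in the knockout-labelled libraries and 126 ± 14.1 CPM in the wild-type ones.

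Levels between genes were compared as CPM per kilobase of the deposited gene length. These lengths join the exons of every isoform, so genes with long rare isoforms are understated. The top gene was ATP5F1B, with 635 ± 18.2 in the knockout-labelled libraries and 584 ± 22.7 in the wild-type ones. NDUFS5 led complex I (247 ± 6.26 against 299.5 ± 34.6 in wild type), COX8A complex IV (219.5 ± 18.8 against 267 ± 21.4) and UQCRC1, a core protein, complex III (131 ± 3.13 against 138 ± 8.69). Both subunits that led complexes I and IV per length were thus among those called lower. Both are also short, NDUFS5 at 548 and COX8A at 507 bases, and at equal CPM a shorter gene stands higher per length. Of tested coding genes under 2000 bases, 21.1% were called lower, where 12.4% of all genes were. A link between level and fall was not tested. In complex II SDHB and SDHA had about the same level in wild type, at 43.3 ± 1.20 and 43.4 ± 1.14, while in the knockout-labelled libraries SDHB stood at 41.1 ± 2.28 and SDHA at 35.8 ± 1.70. SDHC was the lowest of the complex in both groups, at 6.98 ± 0.0599 in the knockout-labelled and 8.55 ± 0.457 in the wild-type libraries. The lowest tested genes of the other complexes were NDUFV2 (0.637 ± 0.134 against 0.481 ± 0.0423 in wild type), UQCRB (13.5 ± 0.663 against 14.4 ± 1.62), COX7A2L (13.7 ± 0.742 against 15.8 ± 1.67) and ATP5S (1.58 ± 0.0390 against 1.43 ± 0.0471), a coupling factor now named DMAC2L.

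**Figure D3:**
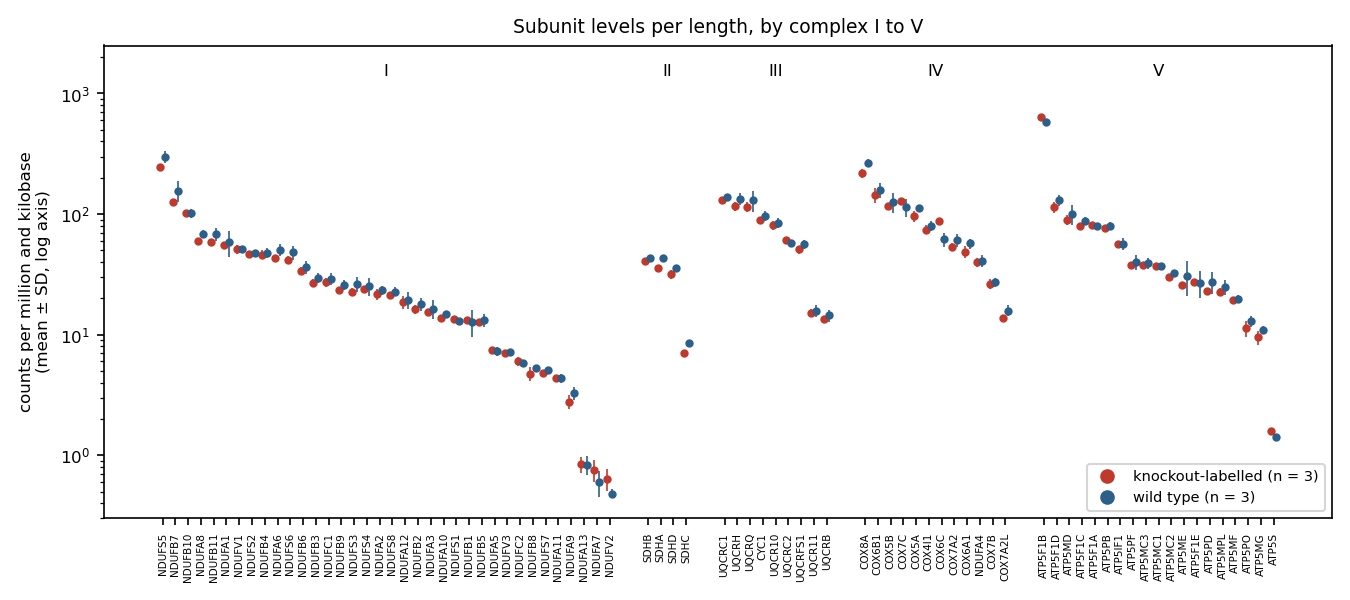
Mean CPM per kilobase of gene length (± SD, n = 3, log axis) of the 80 tested subunit genes, ordered by level within each complex, knockout-labelled in red and wild type in blue. ATP5F1B stands highest and NDUFV2, NDUFA7 and NDUFA13 lowest in both groups, and most pairs of points overlap.

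Where a subunit has forms known from heart and muscle, lung or testis, the ubiquitous form made up nearly all of it. The 7 subunit genes that were not tested are such forms or, for ATP5MGL, a retrocopy: COX6A2, COX7B2 and COX8C had 0 counts in every library, COX4I2 had 1 count in the knockout-labelled libraries and 0 in the wild-type ones, and ATP5MGL had 1 in the knockout-labelled and 3 in the wild-type libraries. COX6B2, a form known from testis, had 0 counts in each knockout-labelled library and 2, 4 and 4 in the wild-type ones, too few to test. COX7A1, the muscle form of subunit VIIa, had 8, 2 and 9 counts in the knockout-labelled libraries and 9, 6 and 0 in the wild-type ones. Per length, COX7A2 made up 79.2 ± 0.457% of its group in the knockout-labelled libraries and 78.9 ± 0.476% in the wild-type ones, and COX7A2L 20.2 ± 0.109% against 20.7 ± 0.365%. The c ring is made of 1 mature protein encoded by 3 genes. ATP5MC3 supplied 35.9 ± 0.599% of their counts per length in the knockout-labelled and 35.9 ± 1.51% in the wild-type libraries, ATP5MC1 35.6 ± 0.667% against 34.0 ± 0.954%, and ATP5MC2 28.5 ± 0.717% against 30.1 ± 0.639%. None of the 3 was called, with adjusted p values of 0.151 to 0.863.

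The libraries differed in a way that touched most subunit genes at once. The median deviation of the 80 subunits from each gene's mean over the 6 libraries, in log2 CPM, was -0.00, -0.02 and -0.11 in the knockout-labelled libraries and 0.08, -0.10 and 0.16 in the wild-type ones. Wild-type library 2 was the lowest of its group for 70 of the 80 genes, wild-type library 3 the highest of all 6 libraries for 56, and knockout-labelled library 3 the lowest of all 6 for 36. The spread among the wild-type libraries was thus wider than the median difference between the groups. Coding genes shorter than 2000 bases moved in much the same way (-0.02, -0.02 and -0.10 in the knockout-labelled libraries; 0.08, -0.06 and 0.16 in the wild-type ones), and so did cytosolic ribosomal protein genes (0.05, -0.02 and -0.10 in the knockout-labelled libraries; 0.07, -0.17 and 0.18 in the wild-type ones), and the part of such a shared shift in the subunits' differences was not tested. Across 12481 coding genes, length and deviation had a Spearman correlation of 0.07, 0.02 and 0.29 in the knockout-labelled libraries and of -0.20, 0.16 and -0.32 in the wild-type ones, given as a description across genes, which are not independent replicates. Among the 1035 tested coding genes under 2000 bases 6.86% were called higher and 21.1% lower, with a median log2 fold change of -0.11, close to that of the subunits.

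**Figure D4:**
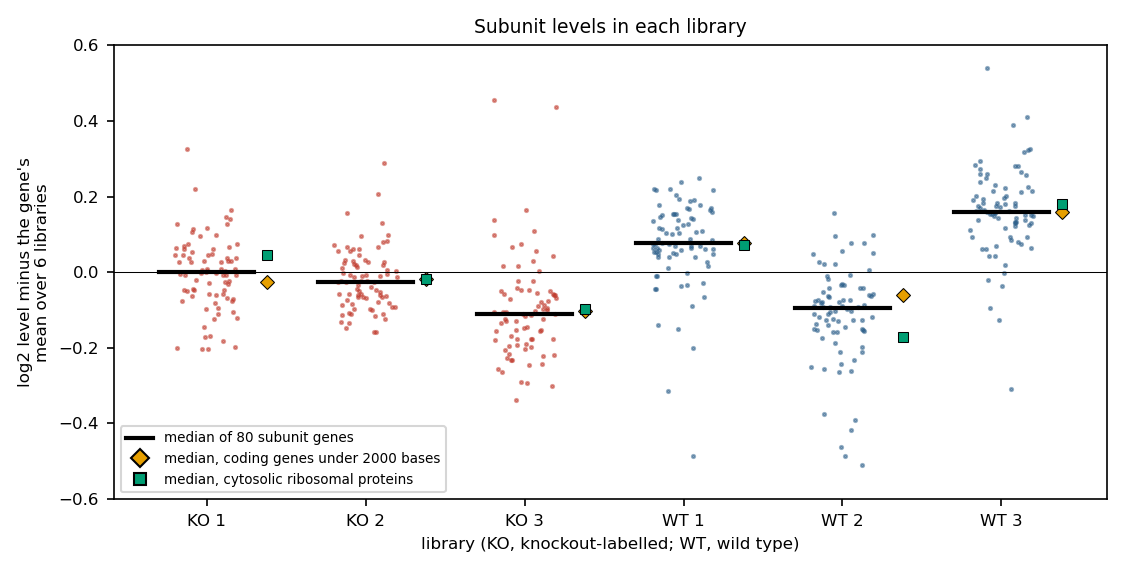
Log2 level of each of the 80 tested subunit genes minus its mean over 6 libraries, by library (KO, knockout-labelled; WT, wild type). Black lines are medians, and the medians of coding genes under 2000 bases (diamonds) and of cytosolic ribosomal protein genes (squares) lie near them in most libraries, with WT 3 highest and KO 3 and WT 2 lowest.

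This pattern bears on the count of calls. Without wild-type library 2, 38 subunit genes were called lower, among them the 10 named above, where 15.2% of all genes were lower in that setting. There were 4 without wild-type library 1, 5 without wild-type library 3 and 4 without knockout-labelled library 3, where 8.73, 9.98 and 8.72% of all genes were called lower. With a smooth trend on gene length removed per library, 12 were lower and 3 higher, against 14.3 and 12.0% of all genes. The 5 genes SDHA, SDHC, NDUFS5, COX8A and COX6C were called in the same direction in all 18 alternative settings, which included leaving out each library in turn; the other 6 were not. Of the 80 tested genes, 37 were called in no setting.

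Reads shared with other loci were checked by count. The 87 genes had 159 pseudogene rows among 45 of them, which together held 0.377% of the subunits' counts in the knockout-labelled libraries and 0.345% in the wild-type ones. Among the called genes, SDHA and COX6A1 had pseudogenes with more than a few reads. Those of SDHA had 1158 counts in the knockout-labelled libraries (7.42% of the counts of SDHA) and 1013 in the wild-type ones (5.45%), and those of COX6A1 had 230 counts in the knockout-labelled libraries (6.74% of the counts of COX6A1) and 268 in the wild-type ones (6.85%). SDHAP1 had a log2 fold change of 0.28 (adjusted p = 0.225) and SDHAP3 one of -0.06 (adjusted p = 0.838), so the fall of SDHA was not seen in them, and reads that the counting may have split between parent and copy were not tested. COX6C pseudogenes held 18 counts in the knockout-labelled and 14 in the wild-type libraries. Exons of SDHA, COX6C, NDUFS5, UQCRH, COX5A and COX7A2L overlapped no other gene in GENCODE release 29, while COX8A shared 34.5% of its exon bases on the same strand with a gene holding 0 counts in the knockout-labelled and 2 in the wild-type libraries. NDUFB11 shared 44.9% of its exon bases with RBM10 on the opposite strand (RBM10 log2 fold change -0.09, adjusted p = 0.399), and without strand in the counting the reads of such pairs cannot be told apart. The low genes NDUFV2, NDUFA7 and NDUFA13 overlapped other genes on the same strand over 28.4, 32.3 and 21.0% of their exon bases, and a pseudogene of NDUFV2 had 79 counts in the knockout-labelled libraries and 87 in the wild-type ones, about as many as NDUFV2 itself, which had 90 in the knockout-labelled libraries and 67 in the wild-type ones. The part of either in these low levels was not tested.

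Promoters were compared over 300 bases, from 250 before to 50 after the start, for the 69 subunit genes in the RefSeq table. The NRF1 motif with a free base stood in 24.6% of them, in 6.28% of all 27305 promoters and in 11.8% of the 9914 promoters of tested coding genes; its form with T as the free base, which is counted in it, stood in 5.80%, 1.36% and 2.30%. CCGGAAG stood in 29.0% of subunit promoters, 10.7% of all and 19.5% of those of tested coding genes. AAGATGGCG, the motif of YY1, was in 11.6%, 1.85% and 4.01%. GGGCGG, the motif of SP1, was in 60.9%, 44.6% and 69.8%, so that it alone was rarer in subunit promoters than in those of tested coding genes. Both strands were searched. Of the 8 called genes with a promoter in the table, 1 held the NRF1 motif, 3 CCGGAAG, 1 AAGATGGCG and 6 GGGCGG. The other called genes, among them SDHC, NDUFS5 and COX6C, are named only.

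The mitochondrially encoded subunits, which join the nuclear ones in complexes I, III, IV and V, were called higher in 5 of 13 mRNAs (38.5%) and lower in 1 (7.69%). Over all genes tested, 12.0% were called higher and 12.4% lower. MT-ATP8, a small ATP synthase subunit, averaged 60.4 ± 4.87 CPM in the knockout-labelled libraries and 47.7 ± 2.22 CPM in the wild-type ones (log2 fold change 0.34, adjusted p = 0.00126). MT-ND1, a complex I subunit, averaged 1527 ± 74.6 CPM against 1284 ± 82.0 CPM in wild type (log2 fold change 0.25, adjusted p = 0.00391), and MT-ND4L 801 ± 81.9 CPM against 639.7 ± 74.5 CPM in wild type (0.32, adjusted p = 0.00980), a call lost without wild-type library 2. MT-CO2, a catalytic subunit of complex IV, was the 1 lower mRNA, at 5358 ± 122 CPM against 6170.2 ± 211 CPM in wild type (-0.20, adjusted p = 0.0187); its call was lost in 5 of the other settings, among them those without knockout-labelled library 2 or 3 or wild-type library 1. Their sum was 50023 ± 429 CPM in the knockout-labelled libraries and 48042 ± 2063 CPM in the wild-type ones, and these overlapped. Whether nuclear and mitochondrial subunits differed in their change was not tested.

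Among the proteins that build the complexes, few were called, and UQCC1 and COX17 had larger fold changes than any called subunit. Over all genes tested, 12.4% were called lower and 12.0% higher. UQCC1, needed to make and assemble cytochrome b of complex III, fell to 22.3 ± 1.02 CPM in the knockout-labelled libraries, against 42.8 ± 2.70 CPM in wild type (log2 fold change -0.94, SE 0.08, adjusted p = 1.02e-09), while the other 5 tested factors of complex III were not called. COX17, the copper chaperone of complex IV, fell to 15.6 ± 2.01 CPM against 23.8 ± 4.27 CPM in wild type (-0.61, SE 0.12, adjusted p = 0.000596), and HIGD1A, a small inner-membrane protein bound to complex IV, to 46.3 ± 4.88 CPM against 59.4 ± 2.01 CPM in wild type (-0.36, adjusted p = 0.000896). These were 2 of 26 tested factors of complex IV. For complex I, NDUFAF2 was the 1 of 18 called, at 19.5 ± 0.468 CPM against 25.4 ± 4.83 CPM in wild type (-0.38, adjusted p = 0.0163), a call lost without knockout-labelled library 1 or 3 or wild-type library 1 or 3. By edgeR 0 of 4 factors of complex II and 0 of 5 of complex V were called, with 0 of either at an unadjusted p below 0.05; OXA1L, which inserts proteins into the inner membrane, changed by -0.03 on the log2 scale (SE 0.05), and SDHAF3 by 0.08 (SE 0.09). DESeq2 and limma voom called 0 of these 9 as well.

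Of the 17 tested regulators of mitochondrial gene expression and biogenesis, 1 was higher and 1 lower (5.88% each). Over all genes tested, 12.0% were called higher and 12.4% lower. ESRRG, an orphan nuclear receptor known in mouse heart for binding genes of oxidative metabolism, had 618, 745 and 634 counts in the knockout-labelled libraries and 5, 3 and 5 in the wild-type ones, or 38.6 ± 1.17 against 0.256 ± 0.0765 CPM (log2 fold change 7.21, SE 0.18, adjusted p = 1.07e-20). TFB1M, which methylates the small ribosomal RNA of the mitochondrion, fell to 9.80 ± 0.953 CPM against 16.5 ± 0.880 CPM in wild type (-0.75, SE 0.12, adjusted p = 1.39e-05). NRF1 had a log2 fold change of -0.11 (SE 0.09), GABPA, the DNA-binding part of GABP, one of -0.04 (SE 0.08), TFAM, the packaging factor of mitochondrial DNA, one of 0.06 (SE 0.06) and the coactivator PPARGC1A one of 0.29 (SE 0.38) at about 1 CPM in both groups, and none of these was called. These 4 were chosen after their values were seen.

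Other mitochondrial genes were counted by list, and differences between lists were not tested. Over all genes tested, 12.4% were called lower and 12.0% higher. Of 78 genes of the mitochondrial ribosome 23 were lower (29.5%) and 0 higher, with a median log2 fold change of -0.15. MRPL16, of its large subunit, fell to 136 ± 9.39 CPM against 177 ± 11.2 CPM in wild type (-0.38, SE 0.06, adjusted p = 3.21e-05), MRPL50 by -0.37 and MRPS18B of the small subunit by -0.30. The count was 8 without knockout-labelled library 1 or 3 or wild-type library 1 or 3, 14 without knockout-labelled library 2 and 38 without wild-type library 2. Of all genes, 9.59, 8.72, 8.73 and 9.98% were lower without knockout-labelled library 1 or 3 or wild-type library 1 or 3, so that the 8 genes were close to the share of all genes there. The shares were about 10% without knockout-labelled library 2 and 15.2% without wild-type library 2. Of 18 genes of the citric acid cycle and pyruvate dehydrogenase 5 were lower (27.8%) and 0 higher. Among them IDH2 had 208 ± 8.56 CPM against 260.3 ± 20.6 CPM in wild type (-0.32, adjusted p = 0.000201). PDHB had a log2 fold change of -0.33 (adjusted p = 0.000591) and IDH3B one of -0.28 (adjusted p = 0.000878). Of 26 genes of protein import 4 were lower (15.4%) and 0 higher, which was close to the share of lower calls over all genes. Among them were TIMM13, a chaperone of the intermembrane space (-0.24, adjusted p = 0.0117), and TIMM17B and TIMM44 of the inner-membrane translocase (-0.31 and -0.19). Each of these 3 calls was lost without knockout-labelled library 1 or wild-type library 3. Of 77 cytosolic ribosomal protein genes, RPS2 the most abundant, edgeR called 0, as did DESeq2 and limma voom; 3 had an unadjusted p under 0.05 in edgeR, at a median log2 fold change of -0.06, and without wild-type library 2, 37 were called lower.

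**Figure D5:**
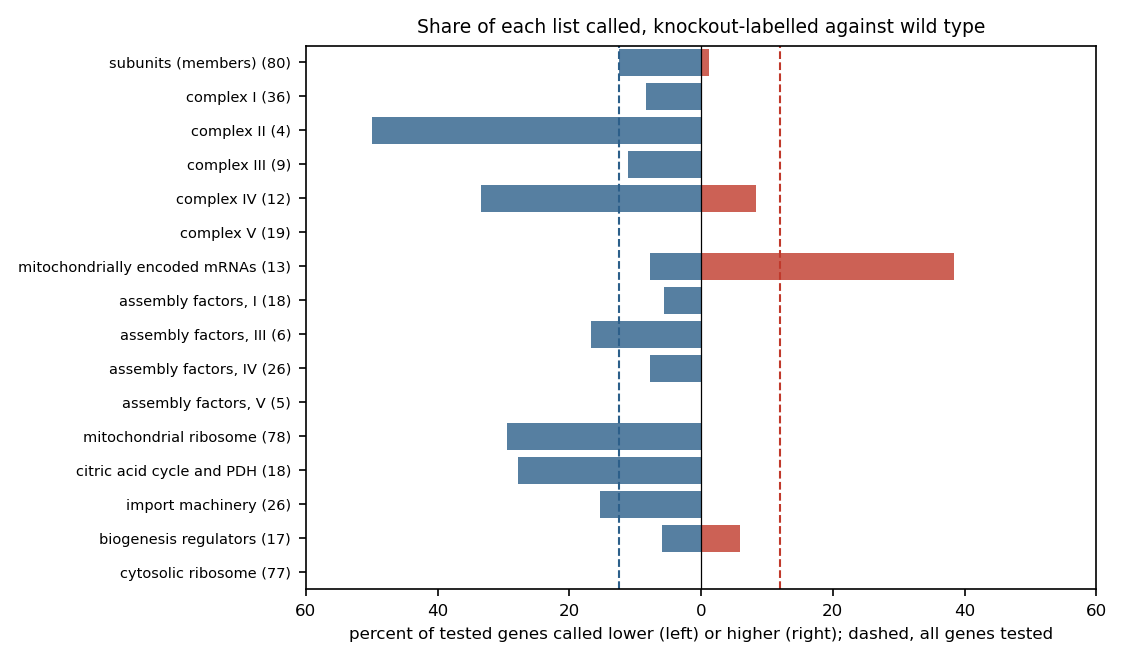
Percent of the tested genes of each list (number in brackets) called lower (blue, left of 0) or higher (red, right of 0) in the knockout-labelled libraries, with the shares over all genes tested as dashed lines. The nuclear subunits lie at the genome share for lower calls, complexes II and IV and the mitochondrial ribosome reach further left, and the mitochondrially encoded mRNAs reach furthest right.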

How the data were processed

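Poly(A) RNA of 3 knockout-labelled and 3 wild-type LS174T libraries was analysed from 1 table. The deposited values are raw read counts for each gene, made by the authors with HISAT2 2.0.5 and featureCounts 1.5.0-p3, per the submitters' processing notes. Those notes list the mouse build mm10, but the gene identifiers are human, and the start and end of all 87 subunit genes are those of GENCODE release 29 on GRCh38. Strand setting and treatment of multi-mapped reads: not given in the sources used here. Of 58967 rows, 232 without a gene name (0.130 to 0.250% of a library) were left out.

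The test was edgeR 4.0.16 in R 4.3.3 (quasi-likelihood, robust, two-sided; TMM; filterByExpr with a minimum count of 10), fitted on 3 against 3 libraries without covariate; 15351 genes were tested, with Benjamini-Hochberg adjustment and calls at an adjusted p below 0.05. The 18 alternatives were DESeq2 size factors, upper-quartile and total-count scaling, 2 other filters, DESeq2 1.42.0, limma voom (3.58.1), non-robust edgeR, coding genes alone, length offsets (lowess span 0.3), the replicate number as a block with and without them, and each library left out. Log2 deviations used a prior count of 2. Complex IV includes NDUFA4, named for complex I. The testing steps were checked on simulated counts. The subunits, lists and tests were chosen with earlier results of these data known.

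Named are FXYD3, each called subunit, the top and bottom level per length of each complex, paralogs and untested subunits, the 5 largest uncalled changes, and up to 3 called genes by smallest p, or the most abundant gene, of each list; CYC1, UQCRFS1, UQCRC2, ATP5F1A, NDUFS3, ATP5IF1, SDHAF3 and the genes near COX6C and SDHA were added after their values were seen. Python 3.11.15 made the tables and plots.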

Additional observations from a re-analysis of the deposited data

Results flagged for a closer look

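Rows of the table that carry no gene name lie outside the measurement used above. They held 0.232 ± 0.0167% of the counts in the knockout-labelled libraries and 0.138 ± 0.0107% in the wild-type ones (SD, n = 3 each), at 0.216 to 0.250% against 0.130 to 0.150%, with no overlap. They entered no library size, and what these rows stand for was not tested.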

How the results depend on the processing

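Leaving out 1 library moved the calls most. The count of subunit genes called lower, 10 as reported, ran from 4 to 38 over the libraries left out, and that of genes called higher from 1 to 2. Lower calls were 6 under upper-quartile scaling, 18 with no filter on low counts and 6 with the replicate block. Higher calls were 2 under total counts, 2 with no filter, 3 with length offsets and 2 with the replicate block and length offsets. Over the lists of other mitochondrial and ribosomal genes, 39 were called lower, against 25 under total counts, 21 with the replicate block and 16 to 103 with a library left out. Shares of all genes called lower or higher are not given here for upper-quartile scaling, total counts, no filter or the replicate block. The counts under those settings thus show only how calls moved, not whether subunits or lists differed from all genes. The number of genes called over the whole table, 3735, stayed within 1.5 times in every setting (2953 to 4032, and 2711 to 4590 with a library left out). The median log2 fold change of the tested subunits was -0.11 to -0.07 over the other settings and -0.19 to -0.04 with a library left out. The ATP5F1E log2 fold change, 0.00 as reported, ran from -0.19 to 0.15 with a library left out, and was -0.19 without wild-type replicate 2 (adjusted p = 0.0156), where that library had 99.5 CPM against 149.6 and 167 in the other wild-type ones; causes were not tested. Of 1440 comparisons of a tested subunit with another setting, 1338 kept their side of the threshold; the sign of the log2 fold change was the other one in 60, over 22 genes, of which 0 were called as reported. Same-numbered libraries of the 2 groups did not deviate together (Pearson's r across genes 0.02, -0.08 and -0.10). Number 1 alone had its best match in its own number. Such values cannot show whether the numbers pair samples, which was not tested and which the labels leave unsaid. Within the motifs, a window of 100 bases gave GGGCGG in 27.5% of subunit promoters. Depth limits NDUFV2, NDUFA7 and NDUFA13, at 0.845 to 2.29 CPM.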
